A study of Mus musculus with 39 samples.

Results

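The loci of the p53 gene Trp53 and of 5 genes that p53 is known to switch on, Cdkn1a, Mdm2, Bbc3, Ccng1 and Trp53inp1, were followed across a mouse DNA methylation series. The members were the 200 bp tiles and single CpGs lying inside 1 window per gene in the mm9 build. The windows are 20 to 37 kb wide and were set by gene position, with no measured value in the rule. They held 72 of 377684 tiles and 187 of 330387 CpGs in the deposited tables. By window there were 13 tiles and 22 CpGs for Trp53, 14 and 7 for Cdkn1a, 13 and 42 for Mdm2, 21 and 92 for Bbc3, 3 and 9 for Ccng1, and 8 and 15 for Trp53inp1.

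The series holds 39 libraries from p53-null and wild-type (WT) mice, 33 made from mouse embryonic stem cells (mESC) and 6 from liver tissue. The stem cells came from E2.5 morulae of matings between p53+/- heterozygotes of the 129s-Trp53tm2Tyj/J strain, on irradiated fibroblast feeders in 2i medium. RA-treated cells were freed of feeders and then given 1 uM retinoic acid (RA) for 4 days, and naive cells were kept in 2i. The labels do not say whether feeders were also removed before the naive libraries were made. Reduced representation bisulfite sequencing (RRBS) of MspI fragments reads 5-methylcytosine (5mC) plus 5-hydroxymethylcytosine (5hmC), called total methylation here, and the oxidative form (oxRRBS) reads 5mC. RA-treated cells gave 4 p53-null and 5 WT RRBS libraries, and 4 p53-null and 4 WT oxRRBS libraries. Naive cells gave 3 p53-null and 5 WT libraries with each assay. Liver came from mice of 16 weeks, with 3 p53-null and 3 WT RRBS libraries. Libraries were pooled before bisulfite treatment or oxidation.

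The deposited values are 1 number per group, so they carry no SD and no n, depth is unknown, and no difference could be set against the spread between libraries. The q-values quoted are those of the authors' deposited table. The CpG table names genotype and state. Its second measure has an undefined suffix and was read as oxRRBS, so CpG values given as oxRRBS rest on that reading. The tile table has 2 sets of columns that name genotype and modification but no state, here the first set and the second set. Among 52919 tiles with 1 listed CpG and values in the first set, its p53-null and WT total values lay a median of 3.67 and 3.28 percentage points from the naive CpG values, and 10.2 and 18.3 points from the RA values. In 52913 such tiles, the second set lay 4.07 and 4.58 points from the RA values and 9.94 and 15.1 points from the naive values. A further pair of tile columns is headed only p53 and WT. The labels name the tile table as the processed file of the liver libraries, but these headings give no tissue, so the pair is called the columns without a tissue. The deposited tables hold no expression values, so loss of p53 itself was not checked.

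The protein p53 is a transcription factor that is stabilised by DNA damage and other stress and binds DNA through a response element made of a pair of half-sites. Among its classic targets, Cdkn1a encodes the cell-cycle inhibitor p21, Mdm2 the ubiquitin ligase that marks p53 for degradation, Bbc3 the pro-apoptotic protein PUMA, Ccng1 cyclin G1, and Trp53inp1 a stress-induced nuclear protein. Promoters rich in CpGs are usually free of methylation in healthy cells whether or not the gene is active.

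RefSeq promoters (build GRCm38.p6, 250 bases before to 50 after a start) were at hand for 5 of the 6 genes, 8 in all. The MspI site CCGG, a palindrome that reads the same on both strands, was present in 6 of these 8 (75.0%), against 52.8% of the 32851 promoters of the reference table and 14 of 16 (87.5%) promoters of 12 other p53 target genes. The median number of CG pairs was 26.5 in the 8 promoters, 21 in the 16 and 7 in all. The listed CpGs could be laid on 3 of the promoters by the spacing of the CpGs alone. At 1 shift, 19 of 19 CpGs fell on a CG in the first Bbc3 promoter (2 at the next best shift), 13 of 13 in another Bbc3 promoter (2), and 9 of 9 in the Ccng1 promoter (1). The first Bbc3 and the Ccng1 promoter are shown because their listed CpGs carry values below, together with an upstream Cdkn1a promoter, which has 2 CG pairs and no CCGG. Placing asked for at least 5 CpGs, so it could not show whether a listed CpG lies in this Cdkn1a promoter. Capitals mark the listed CpGs in Bbc3 and Ccng1, and the p53 response element in Cdkn1a.
Bbc3 promoter, GRCm38 chr7:16309333-16309632, plus strand: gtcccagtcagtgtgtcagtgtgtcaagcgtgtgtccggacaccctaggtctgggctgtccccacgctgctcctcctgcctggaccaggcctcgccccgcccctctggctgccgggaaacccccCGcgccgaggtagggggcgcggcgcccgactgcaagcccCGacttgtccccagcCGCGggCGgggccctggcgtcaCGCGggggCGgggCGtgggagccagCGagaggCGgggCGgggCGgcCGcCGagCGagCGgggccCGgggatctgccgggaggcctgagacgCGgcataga
Ccng1 promoter, GRCm38 chr11:40755237-40755536, minus strand: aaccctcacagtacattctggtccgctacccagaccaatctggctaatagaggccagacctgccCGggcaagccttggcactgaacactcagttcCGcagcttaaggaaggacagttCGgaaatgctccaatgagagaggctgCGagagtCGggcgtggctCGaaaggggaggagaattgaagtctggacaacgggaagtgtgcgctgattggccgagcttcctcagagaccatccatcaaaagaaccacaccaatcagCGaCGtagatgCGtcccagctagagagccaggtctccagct
Cdkn1a upstream promoter, GRCm38 chr17:29090729-29091028, plus strand: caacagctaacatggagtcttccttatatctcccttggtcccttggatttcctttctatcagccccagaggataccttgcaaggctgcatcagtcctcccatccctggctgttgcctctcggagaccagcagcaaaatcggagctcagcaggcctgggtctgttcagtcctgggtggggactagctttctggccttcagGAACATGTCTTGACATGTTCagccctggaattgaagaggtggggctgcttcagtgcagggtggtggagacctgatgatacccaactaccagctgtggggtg

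A p53 response element, searched on both strands as 2 half-sites with no spacer, intact half-site cores and at most 3 mismatches, was found in 188 of all promoters (0.572%). In Cdkn1a the 20 bases starting at base 200 of the sequence above differ from the consensus by 1 mismatch and hold no CG. In Bbc3 the 20 bases starting at base 154, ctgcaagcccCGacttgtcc, have 3 mismatches and hold 1 CG. The Trp53 promoter has a match with 3 mismatches at base 176, 10 CG pairs and no CCGG. A match is a description of letters and not evidence of binding.

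Each of the 6 windows held a stretch that was almost free of methylation in every mESC group where it was measured. These stretches were picked by their low levels, and the CpG density of tiles was not measured. The CpG inside the Bbc3 element, at base 164 of the sequence, was listed at 0% total methylation in RA-treated p53-null and RA-treated WT cells and in naive p53-null and naive WT cells. Of the 19 CpGs placed in that promoter, 3 were above 0% in RA-treated p53-null cells and 2 in RA-treated WT cells, with highest values of 3% and 5%. In naive cells 1 of the 19 was above 0% in the p53-null group, at 13%, and none in the WT group. This CpG, at base 250, was at 0% in the other groups, and at 0% in oxRRBS in every mESC group. The tile that holds it had 0.519% total methylation in p53-null in the first set. In the other placed Bbc3 promoter the highest of 13 CpGs was 3% in RA-treated p53-null, 3% in RA-treated WT, 4% in naive p53-null and 2% in naive WT cells. The Ccng1 promoter had 1 CpG at 14% in naive p53-null cells and 1 at 4% in RA-treated p53-null cells, and 0% at all 9 CpGs in both WT groups. Both of these CpGs were at 0% in oxRRBS in every mESC group, and the tile that holds them had no first-set value.

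Over the 6 windows, 170 of 187 CpGs (90.9%) were under 10% total methylation in all 4 mESC groups, against 68.2% of the whole CpG table. For 90 of them (48.1%) all 4 values were 0%, against 33.1% of the table. Of the 56 tiles with a value in either set, 35 (62.5%) were under 10% in every total and 5mC column, against 19.3% of 283771 tiles. These 35 low tiles reached at most 5.56% in any mESC column, in the Trp53inp1 window, and at most 11.6% in the columns without a tissue, in the Trp53 window. They held 172 of the listed CpGs. The low CpGs averaged 0.559% in RA-treated p53-null and 0.400% in RA-treated WT cells, and 0.400% in naive p53-null and 0.312% in naive WT cells.

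**Figure D1:**
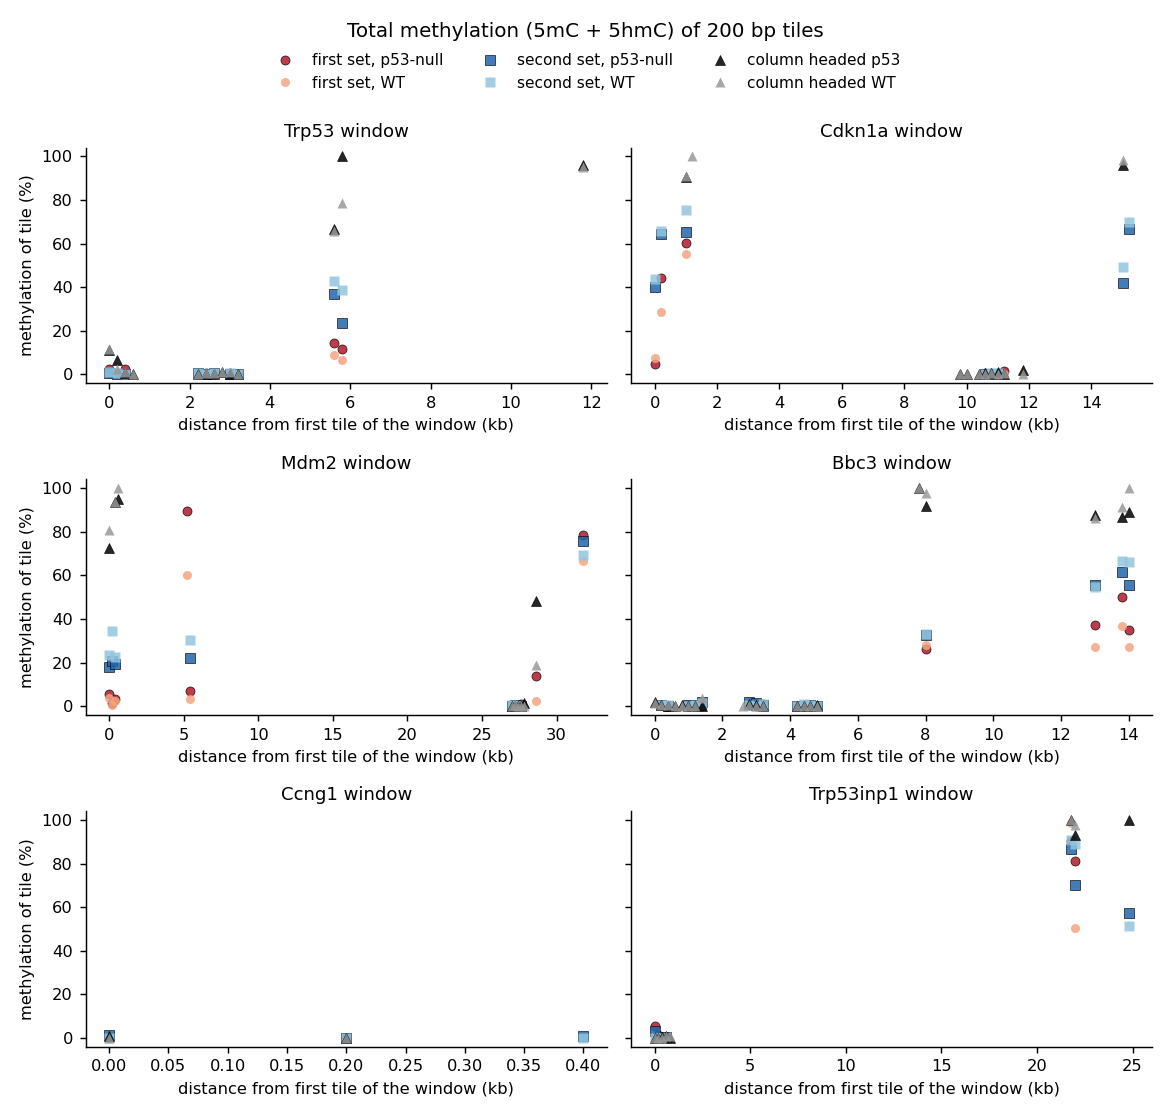
Total methylation in percent of each 200 bp tile (points, 1 value per group and no error) against distance in kb from the first tile of each window, for both column sets and the columns headed p53 and WT. Stretches near 0% lie in all 6 windows, and of 11 other tiles with all values, 9 in p53-null and 10 in WT were lowest in the first set and highest in the columns without a tissue.

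The Trp53 window itself showed 2 low stretches and a methylated one. From chr11:69392001-69392800 (mm9), 3 tiles had values in the sets, with total methylation of 0.62% to 2.58% in p53-null and 0% to 0.485% in WT in the first set. The tiles starting at 69392001 and 69392401 were higher in p53-null there by 2.37 and 2.33 points. Their q-values were q = 0.00956 and q = 0.0204 in the authors' deposited table. The next stretch, chr11:69394201-69395400, stayed at or under 0.840% in p53-null and 0.763% in WT for total methylation in both sets. All 22 listed Trp53 CpGs lay in these stretches and none exceeded 6% in any group.

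Further along, tile chr11:69397601-69397800 had 14.6% total methylation in p53-null and 9.09% in WT in the first set, and 36.9% in p53-null and 42.9% in WT in the second. Its neighbour, chr11:69397801-69398000, had 11.5% in p53-null and 6.58% in WT in the first set, and 23.7% in p53-null and 38.6% in WT in the second. The columns without a tissue gave 66.7% for p53 and 65.8% for WT in the first of these tiles, and 100% for p53 and 78.6% for WT in its neighbour. Both tiles were thus higher in p53-null in the first set and lower in the second, and none of these total differences had q under 0.05 in the authors' deposited table. For 5mC, second-set tile chr11:69397601-69397800 had 13.9% in p53-null and 45.5% in WT, with q = 2.74e-05 in the authors' deposited table. First-set 5mC of this tile went the other way, with 5.36% in p53-null and 0% in WT (q = 0.0126 in the authors' deposited table).

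Missing values in the Trp53 window did not separate the genotypes. Of its 13 tiles, 10 had values for both genotypes in each set, and 3 (starting at 69392601, 69394801 and 69403801) had none in either set. The sets list both genotypes wherever they list one in the whole table, so an absence in 1 genotype could not appear there. The columns without a tissue can differ in this way, and do in 38700 tiles of the table, but had both values in all 13 Trp53 tiles. In the 6 windows 3 tiles lacked 1 genotype in that pair: Cdkn1a chr17:29221801-29222000 was listed for WT alone at 100%, Bbc3 chr7:16897201-16897400 for WT alone at 0%, and Trp53inp1 chr4:11107801-11108000 for p53 alone at 100%.

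Across the 6 windows, methylation in the first set was on average higher in p53-null than in WT. Mean total methylation over 49 tiles was 13.8% in p53-null and 10.7% in WT, a difference of 3.12 points, with a median of 0.40 points. The whole table averaged 8.65 points higher in p53-null, with a median of 6.70 points. Most tiles were low, so the 16 tiles at or above 10% in the other set, a class that leaves out the values compared, were also taken alone. They averaged 34.4% in p53-null and 28.3% in WT, 13 of the 16 were higher in p53-null, and their mean difference of 6.16 points stood beside 10.6 points for all tiles of the table in that class. A tile was called where the authors' deposited table gave q under 0.05 and the levels differed by at least 10 points. By this rule 5 of 49 tiles (10.2%) were higher in p53-null and none lower, against 28.1% and 0.786% of all tiles. Among tiles at or above 10% in the other set, 4 of 16 (25%) were called higher and none lower, against 36.5% and 0.817%. Calls for total methylation were thus no more frequent in the windows than in the table. With at least 25 points and q under 0.01 in the authors' deposited table, only 1 of these tiles was left, against 6.52% of all tiles, and at any size with q under 0.05 there were 9, against 32.4%.

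In the second set the direction was the other one and no total difference was called. The mean over 53 tiles was 17.6% in p53-null and 19.4% in WT, a difference of -1.84 points, against -3.18 points for the whole table. Of 11 tiles at or above 10% in the first set, 9 were lower in p53-null, with means of 57.1% in p53-null and 63.0% in WT. No tile was called higher or lower, against 0.481% and 3.65% of all tiles. At q under 0.05 in the authors' deposited table with any size of difference the count was also 0 in both directions, against 0.649% and 4.13% of all tiles. Among the 11 tiles none was called, against 0.612% higher and 4.81% lower in the table's tiles of that class. The single CpGs, which carry the state in their names, showed small means as well. In RA-treated cells the 187 CpGs averaged 3.89% in p53-null and 3.98% in WT, and in naive cells 2.65% in p53-null and 2.01% in WT. Over the whole CpG table the difference was -1.17 points in RA-treated and 2.82 points in naive cells.

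**Figure D2:**
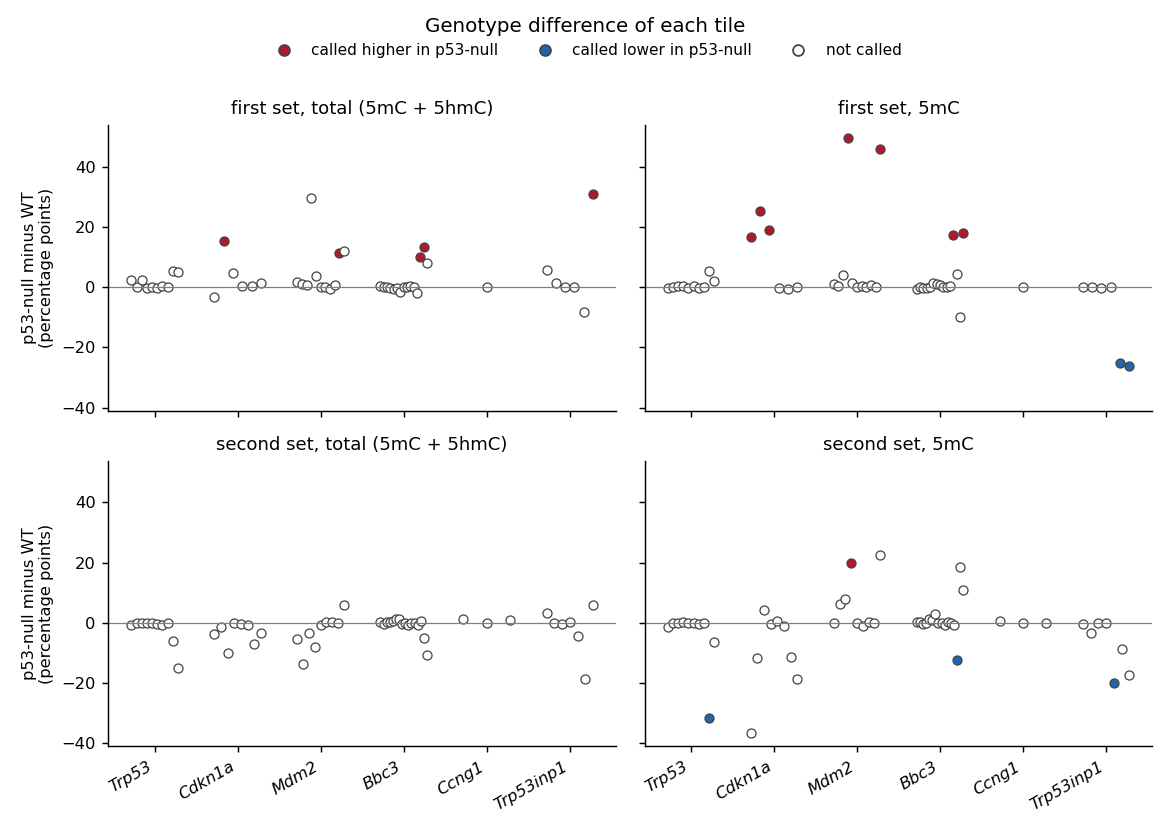
Difference in methylation, p53-null minus WT in percentage points, for each tile (points) by gene, for total methylation and 5mC in both column sets. Filled points are tiles called by q under 0.05 in the authors' deposited table and at least 10 points; the first set has 5 called higher for total methylation, and 7 called higher and 2 called lower for 5mC.

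For 5mC in the first set, 7 of 49 tiles (14.3%) were called higher in p53-null and 2 (4.08%) lower, against 36.6% and 6.03% of all tiles in the authors' deposited table. For 5mC of the second set, 1 of 53 (1.89%) was called higher and 3 (5.66%) lower, against 2.81% and 12.3%. In the tiles at or above 10% in the other set, 6 of 16 (37.5%) were called higher and 2 (12.5%) lower for first-set 5mC, against 45.9% and 6.78% in the table. For second-set 5mC none of 11 was called higher and 3 (27.3%) lower, against 3.5% and 16.1%. At 25 points and q under 0.01 in the authors' deposited table, 3 first-set tiles were higher in p53-null (17.1% of all tiles) and 2 lower (2.03%), and in the second set none was higher and 1 lower (0.597% and 3.3%). At any size 2 second-set tiles were higher, against 3.45%. Means were 9.64% in p53-null and 6.53% in WT in the first set, and 15.4% in p53-null and 17.03% in WT in the second. The 5mC and total values come from separate libraries, and 5mC exceeded the total in many tiles. The deposited 5hmC, which is their difference, was below 0 in 11 p53-null and 12 WT values of 49 in the first set, and in 17 p53-null and 16 WT values of 53 in the second. Single 5hmC values are therefore not used to rank tiles.

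Cdkn1a, the p21 gene, had its called tiles at the start of its window, about 10 kb before its low stretch. Tile chr17:29220801-29221000 had 44.1% total methylation in p53-null and 28.8% in WT in the first set (q = 0.0315 in the authors' deposited table). Its 5mC was 31.4% in p53-null and 5.93% in WT. In the second set total methylation was 64.5% in p53-null and 65.8% in WT. The only listed CpG of that tile, chr17:29220868, had 62% in RA-treated p53-null and 57% in RA-treated WT cells, and 57% in naive p53-null and 29% in naive WT cells. Naive WT is the group that stands low there. At the neighbouring tile chr17:29220601-29220800, first-set 5mC was 16.7% in p53-null and 0% in WT (q = 0.00384 in the authors' deposited table), while the total was 4.55% in p53-null and 7.69% in WT. For p53-null the 5mC value was thus above the total. The second set went the other way for 5mC in this tile, with 9.52% in p53-null and 46.2% in WT, a difference that was not called. At chr17:29220801-29221000 second-set 5mC was 51.5% in p53-null and 63.04% in WT. Tile chr17:29221601-29221800 had 60.2% 5mC in p53-null and 41.2% in WT in the first set (q = 0.00194 in the authors' deposited table). Of the 8 tiles in the low stretch, chr17:29230401-29232600, 3 had values in each set. Tiles starting at 29230401, 29230601, 29231001 and 29232401 had none in either. Measured tiles stayed at or under 1.53% in p53-null and 0.697% in WT for total methylation in both sets. For 5mC they stayed at or under 0.832% in p53-null and 1.12% in WT. Beyond this stretch, tiles at 29235601 and 29235801 had values in the second set alone of the sets. Their totals were 42.1% and 66.7% in p53-null and 49.1% and 70.0% in WT.

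Mdm2, whose product degrades p53, had its tiles at both ends of the scale. Its low stretch of 4 tiles with 33 listed CpGs, starting at chr10:117147001, stayed at or under 1.09% in every mESC column. Next to it, tile chr10:117148601-117148800 had 13.7% total methylation in p53-null and 2.27% in WT in the first set (q = 0.04995 in the authors' deposited table), with 0% 5mC in both. The columns without a tissue gave 48.4% for p53 and 18.9% for WT in that tile. Its single listed CpG, chr10:117148706, had 49% in RA-treated p53-null and 11% in RA-treated WT cells, and 18% in naive p53-null and 7% in naive WT cells. In oxRRBS the same CpG had 39% in RA-treated p53-null and 6% in RA-treated WT cells, and 0% in both naive groups. This CpG was higher in p53-null in each total comparison, and its difference of 38 points in RA-treated cells was the largest total difference between genotypes among the 187 CpGs in either state.

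At the other end of the Mdm2 window, the stretch chr10:117120001-117120800 with 7 listed CpGs was low in naive cells. These CpGs had 0% to 16% in naive p53-null and 0% to 9% in naive WT cells, and 10% to 44% in RA-treated p53-null and 4% to 60% in RA-treated WT cells. Their means were 27.1% in RA-treated p53-null and 33.6% in RA-treated WT cells, and 3.86% in naive p53-null and 2.29% in naive WT cells. In oxRRBS the means were 19.7% in RA-treated p53-null and 16.4% in RA-treated WT cells, and 2.57% in naive p53-null and 0.857% in naive WT cells, so in RA-treated cells the genotypes stood in the opposite order from the total. The widest gap between genotypes was at chr10:117120213, with 28% in RA-treated p53-null and 53% in RA-treated WT cells, and 0% in both naive groups. Its neighbour chr10:117120198 had 44% in RA-treated p53-null and 60% in RA-treated WT cells, and 16% in naive p53-null and 9% in naive WT cells. At chr10:117120428 the values were 26% in RA-treated p53-null and 32% in RA-treated WT cells, and 0% in both naive groups. All 7 CpGs were thus higher in RA-treated than in naive cells of the same genotype. The tiles followed the same order for total methylation, at 1.69% to 5.45% in p53-null and 0.635% to 3.73% in WT in the first set, and 17.9% to 20.9% in p53-null and 22.4% to 34.5% in WT in the second. Second-set 5mC was higher in p53-null in all 3 tiles, most at chr10:117120401-117120600 with 21.7% in p53-null and 13.8% in WT (q = 2.62e-05 in the authors' deposited table), under the 10 points asked of a call. In the columns without a tissue, tile chr10:117120001-117120200 had 72.7% for p53 and 80.7% for WT. Tile chr10:117120401-117120600 had 93.5% for p53 and 93.9% for WT there, and chr10:117120201-117120400 had no value. Tile chr10:117120601-117120800, with no value in either set, had 95.0% for p53 and 100% for WT.

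The largest 5mC differences of all 6 windows also lay in Mdm2. Tile chr10:117125201-117125400 had 71.0% 5mC in p53-null and 21.4% in WT in the first set (q = 2.07e-04 in the authors' deposited table). Its total was 89.5% in p53-null and 60.0% in WT, which missed the threshold at q = 0.0758 in the authors' deposited table. Tile chr10:117151801-117152000 had 69.9% 5mC in p53-null and 23.9% in WT, against a total of 78.6% in p53-null and 66.7% in WT. Its listed CpG, chr10:117151816, had 77% in RA-treated p53-null and 70% in RA-treated WT cells, and 79% in naive p53-null and 67% in naive WT cells. In oxRRBS it had 77% in RA-treated p53-null and 48% in RA-treated WT cells, and 70% in naive p53-null and 25% in naive WT cells. In both tiles the oxRRBS gap between genotypes was wider than the total gap. In the second set the called tile was chr10:117125401-117125600, with 36.9% 5mC in p53-null and 17.1% in WT (q = 0.0202 in the authors' deposited table), while its total was 22.03% in p53-null and 30.2% in WT.

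Bbc3, the PUMA gene, had the longest low stretch, 16 tiles over chr7:16894601-16899600 with 88 listed CpGs. Of these tiles, 11 had values in the first set and 12 in the second. Measured tiles were at or under 1.90% in p53-null and 1.52% in WT for total methylation in both sets. Methylated tiles followed. Tile chr7:16907601-16907800 had 37.4% total methylation in p53-null and 27.4% in WT in the first set (q = 0.00642 in the authors' deposited table). Tile chr7:16908401-16908600 had 50% in p53-null and 36.8% in WT (q = 0.0317 in the authors' deposited table). The second-set totals of this pair of tiles were 55.7% and 61.7% in p53-null, and 54.9% and 66.7% in WT. The CpG chr7:16908691 had 50% in RA-treated p53-null and 70% in RA-treated WT cells, and 46% in naive p53-null and 28% in naive WT cells, so the sign of the genotype difference was opposite in the 2 states. Its neighbour chr7:16908675 had 58% in RA-treated p53-null and 64% in RA-treated WT cells, and 29% in naive p53-null and 24% in naive WT cells. In oxRRBS, CpG chr7:16902660 had 29% in RA-treated p53-null and 35% in RA-treated WT cells, and 2% in naive p53-null and 0% in naive WT cells. Its total methylation was 34% in RA-treated p53-null and 38% in RA-treated WT cells, and 26% in naive p53-null and 36% in naive WT cells, so the step between states was wide in oxRRBS and narrow in the total. For 5mC, tiles chr7:16902601-16902800 and chr7:16908601-16908800 had 21.7% and 23.3% in p53-null and 4.26% and 5.26% in WT in the first set, both called higher by the rule on the authors' deposited table. Tile chr7:16907601-16907800 was called lower for 5mC in the second set, with 52.9% in p53-null and 65.2% in WT (q = 0.0217 in the authors' deposited table).

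Ccng1, the cyclin G1 gene, was represented by its promoter region alone. Of its 3 tiles, chr11:40568401-40569000, the first set held values for 1 alone, at 0% total methylation in p53-null and WT. The second set held all 3, with at most 1.26% in p53-null and 0% in WT for total methylation. None was called. Trp53inp1 had a low stretch, chr4:11083001-11084000, with values for 4 of its 5 tiles in each set. It was at or under 5.56% in p53-null and 0.361% in WT for total methylation in both sets. Its highest 5mC values were 3.51% in p53-null and 4% in WT, both in the second set. More than 20 kb further, its tiles were highly methylated. Tile chr4:11105001-11105200 had 81.1% total methylation in p53-null and 50.3% in WT in the first set, a difference of 30.80 points (q = 2.14e-06 in the authors' deposited table). Its 5mC went the other way, with 32.0% in p53-null and 58.3% in WT (q = 2.56e-07 in the authors' deposited table), and for WT the 5mC value was above the total. The second-set total also went the other way, with 70.2% in p53-null and 88.9% in WT, which was not called. Tile chr4:11104801-11105000 had 64.0% 5mC in p53-null and 89.3% in WT in the first set (q = 1.42e-05 in the authors' deposited table), and 76.3% in p53-null and 96.2% in WT in the second. Its CpG chr4:11104959 had 83% total methylation in RA-treated p53-null and 100% in RA-treated WT cells, and 91% in naive p53-null and 100% in naive WT cells. In oxRRBS it had 78% in RA-treated p53-null and 94% in RA-treated WT cells, and 54% in naive p53-null and 87% in naive WT cells. This site was lower in p53-null in all 4 comparisons.

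**Figure D3:**
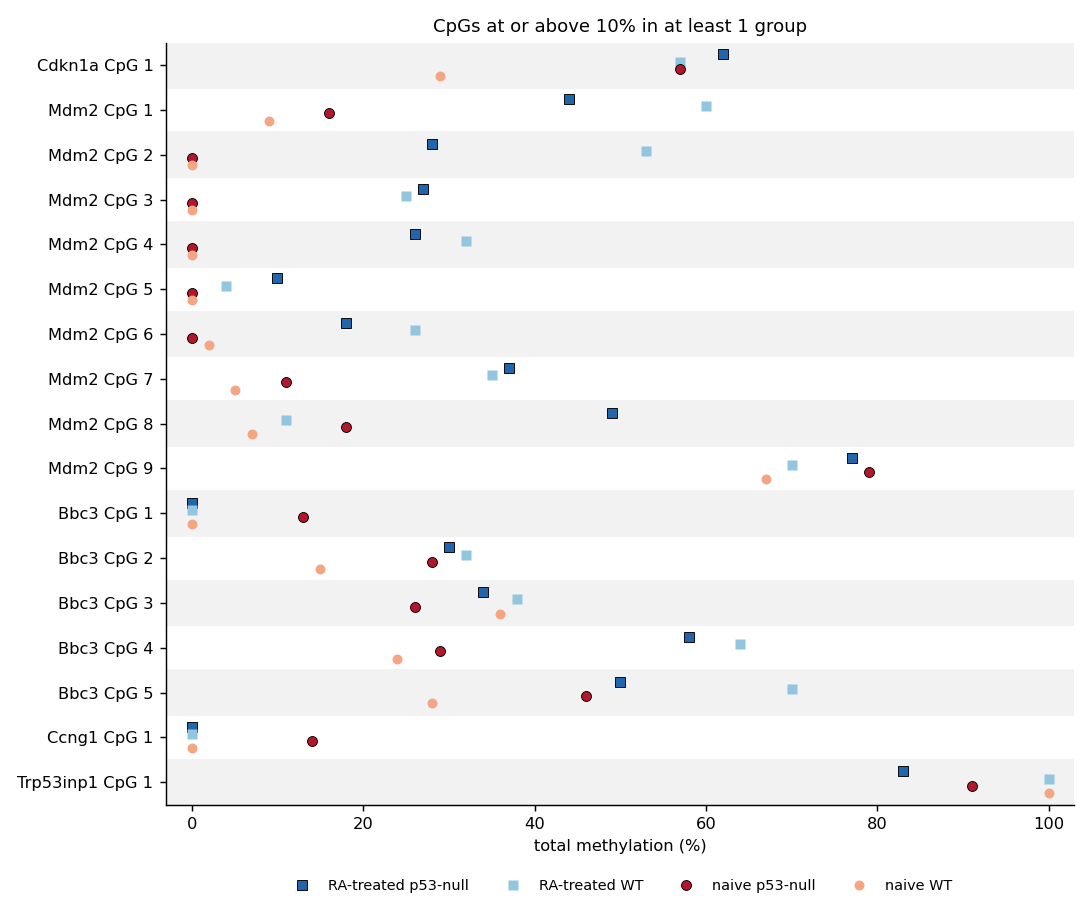
Total methylation in percent (x axis) of the 17 CpGs at or above 10% in at least 1 group, numbered by position within each window, in RA-treated and naive cells of both genotypes (1 value per group, no error). Mdm2 CpGs 1 to 7 were at 0% to 16% in naive cells and at 4% to 60% in RA-treated cells.

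Between states, few CpGs of the windows moved by 10 points. For total methylation most of those lay in the Mdm2 window, which held 42 of the 187 CpGs, against 92 in the Bbc3 window. Of all 187 CpGs, 9 (4.81%) had at least 10 points more total methylation in RA-treated than in naive p53-null cells and 2 (1.07%) at least 10 points less, against 14.1% and 4.46% of the table. In WT cells 10 (5.35%) were higher and none lower, against 23.8% and 0.802%. The 2 lower CpGs were chr7:16894931 of Bbc3 and chr11:40568876 of Ccng1, the promoter CpGs described above. In oxRRBS, 12 CpGs (6.42%) were higher in RA-treated p53-null cells and 10 (5.35%) in RA-treated WT cells, with none lower, against 16.7% higher and 2.88% lower in p53-null and 22.4% and 0.595% in WT over the table. The 17 CpGs at or above 10% in any group averaged 37.2% in RA-treated and 25.2% in naive p53-null cells, and 39.8% in RA-treated and 18.9% in naive WT cells. Of these 17, 5 reached 10% in RA-treated cells alone and 2 in naive cells alone, so their means in part follow from how they were picked and are given as a description. Mdm2 held 9 of them, 7 in 1 stretch, Bbc3 held 5, and Cdkn1a, Ccng1 and Trp53inp1 held 1 each.

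Between genotypes, CpGs were compared in the class that reached 10% total methylation in the other state. Of 15 such CpGs in naive cells, 5 (33.3%) had at least 10 points more total methylation in p53-null than in WT and 1 (6.67%) at least 10 points less, against 44.1% and 5.48% of the table's CpGs in that class. In oxRRBS 4 of the 15 (26.7%) were higher and 1 (6.67%) lower in naive p53-null cells, against 34.7% and 9.53%. Of 12 such CpGs in RA-treated cells, 1 (8.33%) was higher in p53-null and 3 (25%) lower for total methylation, against 10.6% and 29.8%. In oxRRBS the balance in RA-treated cells was the other one, with 3 of 12 (25%) higher in p53-null and 1 (8.33%) lower, against 16.6% and 28.6%. The mean oxRRBS difference of these 12 CpGs was 3.5 points, with 39.2% in p53-null and 35.7% in WT, and the table's class had -2.63 points. The median was 0 in the 12 CpGs.

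The columns without a tissue showed near-equal means, 23.6% for p53 and 23.4% for WT over 61 tiles, against a difference of -0.306 points over the whole table. In 13 tiles that were not low in mESC and had both values, these columns averaged 85.9% for p53 and 84.6% for WT. The widest gap there was the Mdm2 tile chr10:117148601-117148800 described above, which was also higher in p53-null in the first set.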

How the data were processed

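RRBS and oxRRBS libraries of mESC and RRBS libraries of liver were processed by the authors with Trim Galore, BSMAP and methylKit on mm9, per the submitters' processing notes. The sources used here give no versions, no coverage filter and no rule for combining libraries. The CpG table deposited by the authors holds whole percent values, 1 column per group. Its Tot columns were taken as RRBS. Its Hx columns have an undefined suffix. They were taken as oxRRBS because they were closer to the 5mC than to the 5hmC tile columns. For naive p53-null and the first set the median difference was 3.95 against 14.9 points. Hx never exceeded Tot in any group, which could hold for 5mC and 5hmC alike and does not decide the reading. Values of separate libraries are not bound in this way, as tile 5mC above the total shows. How the Hx values were derived is unknown. The tile table deposited by the authors holds each 200 bp tile's level as a fraction, per the file headers, with q-values, and was multiplied to percent. A deposited q-value of -1 stands where the difference is 0 and was taken as missing. Another 2 tile columns with an undefined suffix were not used.

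Tiles and CpGs wholly inside the 6 windows were members, and each counted once in a mean. A tile or CpG was low when under 10% in every mESC total or 5mC column (for CpGs, total). Called shares among methylated members used the class at or above 10% in the other set or state, chosen after seeing the data. Genotype differences are p53-null minus WT, and state differences RA-treated minus naive. The designs planned for counts or for single libraries could not be run on pooled values, so no test of replicates was made. All members were described, with called tiles (up to 5 per window and contrast) and CpGs differing by at least 25 points (up to 3) by name; CpGs shown beside a named tile, and the promoter CpGs, were chosen after their values were seen. The members and lists were chosen with earlier results of these data known. No mm9 annotation was used here, so tiles carry positions and no exon or intron. Coordinates count from 1. Counting was tested on simulated data. Python 3.11.15, pandas 2.3.3, numpy 2.4.6 and matplotlib 3.10.9 were used.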

Additional observations from a re-analysis of the deposited data

How the results depend on the processing

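Of 163 recomputed values, 140 kept their direction and moved by less than the SD over the 6 windows (means) or stayed within 1.5 times (counts). That SD is wide, and 34 of 85 other settings tried for a mean moved it by more than 1.5 times or changed its sign. Where a count was 0, dropping tiles or tightening the rule could only return 0, so those settings could not differ. Leaving out Ccng1, which had no called tile, could not change a count either. The naive CpG difference ran between 0.380 and 1.93 points, and the RA-treated minus naive mean between 0.317 (without Mdm2) and 3.26 points in p53-null and between 1.03 and 5.41 in WT. The first-set difference ran between 1.99 and 3.67 points for total methylation, and between 0.323 (tiles with values in every column set) and 4.75 for 5mC, with 1.29 without Mdm2. The second-set difference ran between -2.27 and -1.55 for total methylation and between -3.21 and -0.244 for 5mC. In CpGs at or above 10% in the other state the genotype difference was 5.27 points in naive and -1.08 in RA-treated cells, and in tiles at or above 10% in the other set it was 6.16 (first-set total) and -5.87 (second-set total); these classes were chosen after seeing the data. The mean genotype difference over CpGs of RA-treated cells was near 0 and changed sign to 0.0111 points with each window counting once and to 0.0217 points with 2 kb removed from both window ends. The mean over the columns without a tissue changed sign to -0.302 points in tiles with values in every column set, -0.194 without the Trp53 window and -0.0261 without the Mdm2 window. With each tile counting once, the RA-treated minus naive mean was 3.26 points in p53-null and 5.41 in WT cells. Calls for first-set total methylation, higher in p53-null, numbered 1 at 25 points and q under 0.01, 9 at any size, 3 with 2 kb removed and 3 without Bbc3. For first-set 5mC, calls higher in p53-null were 3 under the stricter rule, 3 with 2 kb removed and 4 without Cdkn1a, and calls lower were 0 without Trp53inp1. For second-set 5mC, calls higher were 0 under the stricter rule, 2 at any size and 0 without Mdm2, and calls lower were 1 under the stricter rule. No paired analysis was possible because each group is 1 pooled column with no replicate number, and leaving out a library was not possible for the same reason. Depth is unknown, so low levels cannot be told from 0.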
